A study of Mus musculus with 6 samples.

Results

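Group 2 innate lymphoid cells (ILC2s) are lymphocytes without antigen receptors that live in tissues such as the gut and make type 2 cytokines. The transcription factors described here build and maintain that lineage. They are Gata3, Rora, Bcl11b, Gfi1, Tcf7, Ets1, Id2, Maf, Tox and Runx3, chosen by gene symbol from the deposited table, which holds all 10 among its 23268 genes. All have known roles in ILC2 development or identity.

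All ILC2s were colonic and from C57BL/6 animals that were 6 to 8 weeks old, which no label describes as carrying any genetic change. The control group drank water. The DSS group was given 3% dextran sulfate sodium (DSS), a polymer that damages the colonic epithelium and causes colitis, for 6 days. Each of the 2 groups has 3 RNA sequencing libraries made from full-length cDNA of sorted ILC2s. The sources used here do not name the sorting markers. The labels do not say whether a library is 1 mouse or a pool, so the tests below measure the spread between libraries, which may be technical.

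ILC2s arise in the bone marrow from progenitors that switch on Tcf7, Tox and Id2. Gata3, Rora, Bcl11b and Gfi1 then direct and hold the ILC2 fate, and Gata3 continues to be needed in mature cells for type 2 cytokine and receptor genes. Several of these factors, among them Gata3, Tcf7, Bcl11b, Ets1 and Tox, also act in T cells.

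Values are FPKM, fragments of a gene scaled to its length and to the size of the library, so levels of different genes can be set side by side. The libraries held 9962415 to 23119390 fragments. The 10 factors were each covered by at least 411 fragments per library (Maf in DSS replicate 3), for which counting error alone is 4.93%. A log2 change is the DSS mean minus the control mean of log2(FPKM + 1), with the standard error (SE) from the limma fit over all 12187 genes with a mean of at least 1 FPKM.

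DSS replicate 1 stood apart from the other libraries on the second principal component of these genes, at −57.93 against −9.4 to 27.79 for the other 5. The first component set DSS replicate 3 (70.48) and control replicate 3 (28.31) apart from the other 4 (−33.03 to −10.87). In DSS replicate 1, the longest of 3 equal classes of tested genes by annotated exon length had a median log2 difference of −0.32 from the control mean. The middle class had −0.28 and the shortest 0.17. For the longest, middle and shortest classes these medians were −0.06, −0.06 and −0.01 in DSS replicate 2. In DSS replicate 3 they were 0.28, 0.18 and 0.24. Of the factors, Rora, Bcl11b, Ets1, Maf and Tox are in the longest class, Gata3, Gfi1 and Runx3 in the middle one and Tcf7 and Id2 in the shortest. The part of length in their values was not tested.

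All 10 factors had a lower fitted value in DSS, and for 6 of them, Gata3, Rora, Gfi1, Tcf7, Ets1 and Tox, every DSS library lay below every control library. Such a separation downward was found for 9.60% of all tested genes, one upward for 6.35% and for 0 of the 10, and a fitted value below 0 for 46.9%. Among the 6734 genes with a mean of at least 5 FPKM, as all 10 factors have, 15.3% were separated downward and 58.9% had a value below 0. The median log2 change was −0.49 over the 10 factors and 0.03 over all tested genes. None of the 10 passed limma's test at an adjusted p under 0.05, which 18 genes passed downward (0.148% of those tested) and 9 upward (0.0738%). After median-of-ratios scaling 13 genes passed, 7 of them lower. At an unadjusted p under 0.05, 4 of the 10 were lower (Gata3, Rora, Tcf7 and Ets1), against 5.42% of all genes. With limma voom on the fragments behind the FPKM values, 0 of the 10 passed (0.148% of all genes), and 4 were lower at an unadjusted p under 0.05 (5.92% of all genes). Without DSS replicate 1, 7 of the 10 were separated downward, now with Id2, against 14.2% of all genes. Without DSS replicate 3, 7 were, now with Bcl11b, against 21.8%. DSS replicate 1 was the lowest DSS library for 7 of the 10 factors and for 52.9% of all tested genes. In a bulk sample, fewer cells that express a factor and less of its RNA per cell cannot be told apart.

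**Figure D1:**
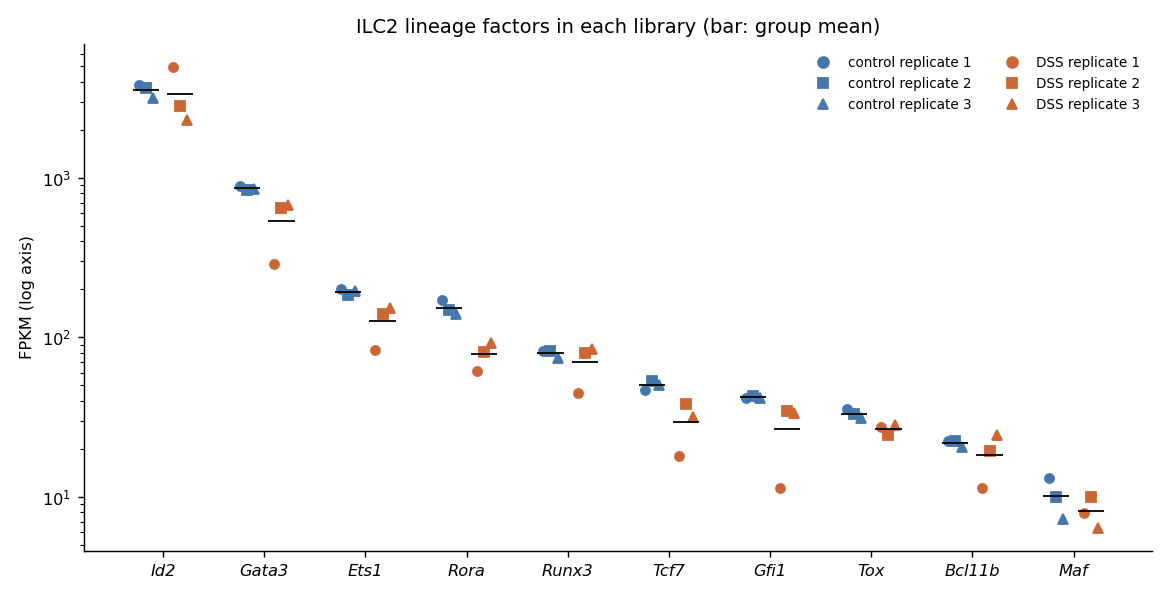
FPKM of the 10 factors on a log axis, ordered by control mean, with 1 point per library and a bar at each group mean of 3 libraries. Control coefficients of variation run from 1.92% to 10.8% for 9 factors and reach 29.1% for Maf, while DSS replicate 1 is below the other 2 DSS libraries for 7 factors and above them for Id2.

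The start regions of 3 factors are printed here, for Gata3 and Rora, which had an unadjusted limma p under 0.05, and for Runx3, whose groups overlapped. Tcf7 was also under 0.05, and its windows are described below but not printed. None of the 3 printed windows holds an annotated UTR. Each is the 250 bases before a RefSeq start site (GRCm38.p6), on the gene's strand, with matches to the motifs of the factors' own families in capitals. The motifs searched on both strands were AGATAA for GATA factors, AGGTCA for ROR, CTTTGA for TCF and LEF, CGGAAG for ETS, TGTGGT for RUNX, CAGGTG for E proteins and TGCTGA for MAF.
Gata3, chr2:9878601-9878850, minus strand: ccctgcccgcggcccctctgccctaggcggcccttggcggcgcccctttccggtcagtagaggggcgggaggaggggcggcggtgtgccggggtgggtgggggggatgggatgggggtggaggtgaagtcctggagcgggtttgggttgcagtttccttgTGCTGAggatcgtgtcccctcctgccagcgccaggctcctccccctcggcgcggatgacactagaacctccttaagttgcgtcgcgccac
Rora, chr9:68653536-68653785, plus strand: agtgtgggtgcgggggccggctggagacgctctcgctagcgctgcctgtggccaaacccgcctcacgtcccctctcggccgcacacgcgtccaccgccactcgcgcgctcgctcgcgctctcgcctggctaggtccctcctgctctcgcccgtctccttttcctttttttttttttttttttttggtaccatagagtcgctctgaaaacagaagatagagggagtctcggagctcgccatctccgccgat
Runx3, chr4:135120395-135120644, plus strand: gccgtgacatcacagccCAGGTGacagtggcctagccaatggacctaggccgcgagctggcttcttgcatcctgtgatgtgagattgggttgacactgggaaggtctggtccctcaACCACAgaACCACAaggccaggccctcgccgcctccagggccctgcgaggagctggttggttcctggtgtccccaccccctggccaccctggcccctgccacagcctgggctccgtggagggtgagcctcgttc
The Gata3 window holds 1 MAF motif, 90 to 85 bases before the start, and overlaps an exon of the antisense gene Gm13256. The printed Runx3 window holds 2 RUNX motifs on the opposite strand, 134 to 129 and 126 to 121 bases before the start. It also holds 1 E protein motif and overlaps an exon of Gm16225. The other Runx3 window, not printed, holds none of the motifs. The Rora window holds none of the 7 motifs. Of the 2 Tcf7 windows, 1 holds none and the other a ROR motif 13 to 8 and an ETS motif 25 to 20 bases before the start. Windows were found for 7 of the 10 factors, 10 windows in all. The GATA motif was in none of them, against 9.99% of the 32851 windows of all genes. RUNX was matched in 1 factor (14% of all windows), ROR in 1 (14%) and TCF and LEF in 1 (13.8%). ETS, E protein and MAF were each matched in 2 factors (13.6%, 17.2% and 16.1% of all windows). The FPKM values are sums per gene and do not show which start site was used.

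Gata3 encodes the zinc finger factor known as the master regulator of ILC2s and lies on chromosome 2 (mm10, 9857078 to 9890034, minus strand). It measured 885, 841 and 852 FPKM in control replicates 1, 2 and 3. In DSS replicates 1, 2 and 3 it measured 287, 652 and 674. The groups did not overlap, but DSS replicate 1 was at 33.4% of the control mean while the other 2 were at 75.9% and 78.4%. The means were 859 ± 22.8 and 538 ± 217 FPKM (SD, n = 3 libraries each). The log2 change of −0.78 ± 0.32 SE did not pass (limma adjusted p = 0.497), and without DSS replicate 1 it was −0.37 ± 0.13 SE (limma adjusted p = 0.151). Gata3 shares 155 bp of exon with antisense Gm13256 and 77 bp with 9230102O04Rik on its own strand. Fragments from these bases could belong to either gene, and how many there were was not measured.

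Rora encodes the nuclear receptor RORα, which ILC2 development requires. The gene lies on chromosome 9 (mm10, 68653786 to 69388246, plus strand) and shares 82 bp of exon with antisense Gm15511. It had the largest log2 change of the 10 and the DSS libraries that agreed best among the 5 with changes beyond −0.5. Control replicates 1, 2 and 3 measured 172, 149.5 and 139.7 FPKM, and DSS replicates 1, 2 and 3 measured 61.3, 81.0 and 92.7. All DSS values lay below all control values, at 39.9%, 52.7% and 60.2% of the control mean. The means were 154 ± 16.7 and 78.3 ± 15.9 FPKM (SD, n = 3 libraries each), 1.96-fold lower in DSS. Its log2 change was −0.98 ± 0.22 SE (limma adjusted p = 0.140). Rora was the 1 factor that passed when DSS replicate 1 was left out (−0.82 ± 0.14 SE, limma adjusted p = 0.00809), in a fit that called 2.32% of genes lower. It did not pass when any of the other 5 libraries was left out (limma adjusted p = 0.0971 to 0.662).

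Gfi1 and Bcl11b encode zinc finger factors that help ILC2s keep their identity, and Bcl11b is also the factor of T cell commitment. Gfi1, on chromosome 5 (mm10, 107716657 to 107726036, minus strand), was the least variable factor among controls, at 41.6, 43.1 and 41.8 FPKM. DSS replicate 1 had 11.4 FPKM, or 27.1% of the control mean, the lowest share of any factor in any library. DSS replicates 2 and 3 had 34.7 and 33.4 FPKM, still below every control. The log2 change of Gfi1 was −0.80 ± 0.37 SE (limma adjusted p = 0.576), and −0.30 ± 0.13 SE without DSS replicate 1 (limma adjusted p = 0.275). Gfi1 shares 101 bp of exon with A430072P03Rik on the opposite strand.

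Bcl11b, on chromosome 12 (mm10, 107910403 to 108003602, minus strand), measured 22.4, 22.5 and 20.5 FPKM in the control libraries. In DSS replicates 1, 2 and 3 it measured 11.4, 19.3 and 24.5. DSS replicate 1 was low and DSS replicate 3 was above all controls, so the groups overlapped. The fitted log2 change was −0.29 ± 0.27 SE (limma adjusted p = 0.827) and came to −0.0035 ± 0.16 SE without DSS replicate 1. Without DSS replicate 3 it was −0.52 ± 0.26 SE (limma adjusted p = 0.360), and the groups then did not overlap.

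**Figure D2:**
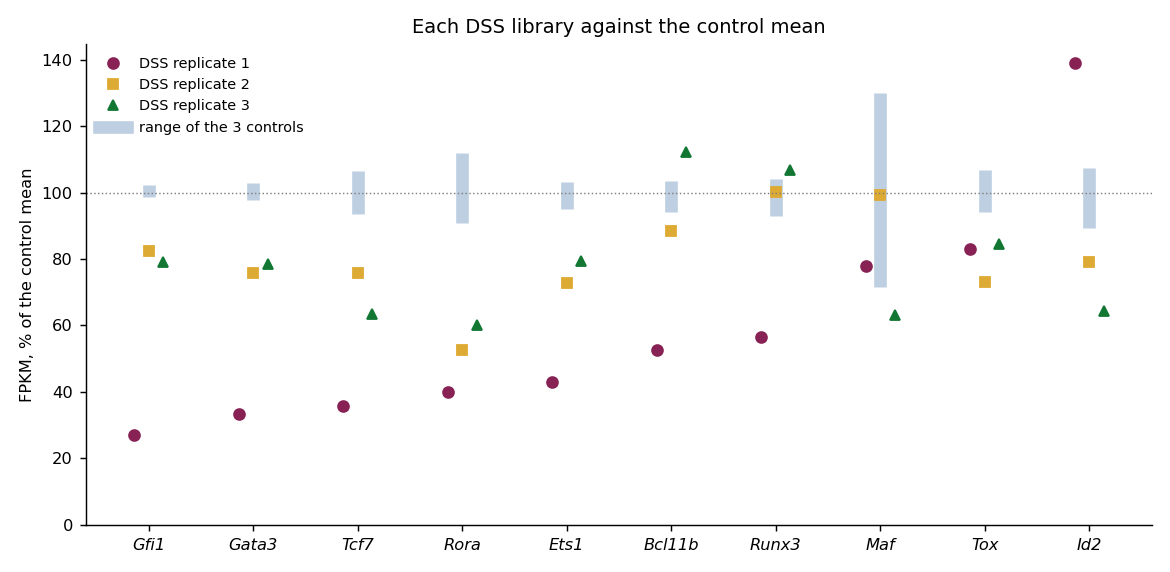
FPKM of each factor in each DSS library as a percentage of the control mean, with a shaded bar for the range of the 3 controls. DSS replicate 1 runs from 27.1% (Gfi1) to 139% (Id2), while DSS replicates 2 and 3 lie between 52.7% and 112%.

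Tcf7, which encodes the HMG-box factor TCF-1 of early innate lymphoid progenitors, lies on chromosome 11 (mm10, 52252371 to 52283014, minus strand). Its control values were 46.9, 53.4 and 50.1 FPKM. Its DSS values were 17.98, 38.1 and 31.8 FPKM, and each was below every control. The log2 change was −0.82 ± 0.27 SE (limma adjusted p = 0.346), and −0.51 ± 0.14 SE without DSS replicate 1 (limma adjusted p = 0.0776). The log2 ratio of Gata3 to Tcf7 was 4.07 ± 0.13 in controls and 4.12 ± 0.22 in DSS (SD, n = 3 libraries each, exact permutation p = 0.800).

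Tox, which encodes an HMG-box factor of innate lymphoid progenitors, lies on chromosome 4 (mm10, 6686353 to 6991557, minus strand). It measured 35.4, 33.0 and 31.3 FPKM in controls and 27.6, 24.3 and 28.1 FPKM in DSS. The groups did not overlap, and Tox had the most even DSS libraries of the 10, with a coefficient of variation of 7.79%. Its change was small, at −0.31 ± 0.19 SE (limma adjusted p = 0.714), and −0.33 ± 0.14 SE without DSS replicate 1. After median-of-ratios scaling its groups overlapped. Tox shares 260 bp of exon with antisense Gm11802.

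Ets1 encodes an ETS-domain factor used by many lymphocytes and lies on chromosome 9 (mm10, 32636221 to 32757820, plus strand). Control values were 200.3, 184.5 and 197 FPKM. DSS values were 83.3, 141 and 154 FPKM, below every control, with DSS replicate 1 at 43.0% of the control mean. Its log2 change was −0.66 ± 0.25 SE (limma adjusted p = 0.435), and −0.39 ± 0.12 SE without DSS replicate 1 (limma adjusted p = 0.113). After quantile normalization the Ets1 groups overlapped and those of Id2 did not.

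Id2 encodes a helix-loop-helix protein without a DNA-binding region, which holds E proteins away from DNA and is needed by all innate lymphoid lineages. It was the most abundant of the 10 and lies on chromosome 12 (mm10, 25093799 to 25097140, minus strand). Control replicates 1, 2 and 3 measured 3835, 3679 and 3187 FPKM. DSS replicates 1, 2 and 3 measured 4960, 2819 and 2296 FPKM. DSS replicate 1 was thus the highest of the 6 libraries for Id2, at 139% of the control mean, where it was the lowest for 7 other factors. DSS replicates 2 and 3 were below every control. The fitted log2 change was −0.16 ± 0.31 SE (limma adjusted p = 0.921). It was −0.48 ± 0.17 SE without DSS replicate 1 (limma adjusted p = 0.169) and 0.07 ± 0.27 SE without DSS replicate 3.

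The E proteins that Id2 binds were much lower than Id2 itself. Tcf3 measured 11.6 to 18.4 FPKM in controls and 7.53 to 16.0 in DSS, Tcf12 8.09 to 9.42 and 5.08 to 8.98, and Tcf4 2.96 to 4.01 and 2.97 to 3.53. The log2 ratio of Id2 to the 3 together was nearly constant in controls, at 6.97, 7.03 and 6.99. In DSS replicates 1, 2 and 3 it was 8.22, 6.66 and 6.28, so 1 DSS library was above and 2 were below all controls (exact permutation p = 1.00). The other inhibitors, Id1 and Id3, measured 3.49 to 5.44 and 10.8 to 15.5 FPKM in controls. In DSS Id1 measured 14.1 FPKM in replicate 1 and 3.32 and 4.10 in the other 2, and Id3 11.5 to 16.3. Of these 5 E protein and Id genes, 0 passed the limma test and 0 had separated groups.

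Runx3 encodes a runt-domain factor better known from ILC1s, ILC3s and cytotoxic T cells. It lies on chromosome 4 (mm10, 135120652 to 135177990, plus strand). Control values were 81.8, 82.7 and 74.0 FPKM. DSS values were 45.04, 79.5 and 84.9 FPKM, with only DSS replicate 1 outside the control range on the low side. The log2 change was −0.24 ± 0.26 SE (limma adjusted p = 0.858), and 0.05 ± 0.13 SE without DSS replicate 1. Its paralog Runx1 measured 33.6 to 36.8 FPKM in controls and 21.5 to 26.5 in DSS, without overlap (limma adjusted p = 0.414). The log2 ratio of Runx3 to Runx1 was 1.14 ± 0.13 and 1.43 ± 0.58 (SD, n = 3 libraries each, exact permutation p = 0.500). The difference of 0.29 was 0.60 without DSS replicate 1 and 0.036 without DSS replicate 3.

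Maf encodes the bZIP factor c-MAF, which supports cytokine genes such as Il4 and Il10 in T cells. It lies on chromosome 8 (mm10, 115682942 to 115707794, minus strand). It had the lowest level of the 10 and the most variable in controls, at 13.2, 10.001 and 7.27 FPKM. DSS values of 7.92, 10.1 and 6.40 FPKM overlapped with these. Its log2 change was −0.27 ± 0.27 SE (limma adjusted p = 0.836). It ranged from −0.08 without control replicate 1 to −0.47 without control replicate 3, and was −0.42 without DSS replicate 2 and −0.13 without DSS replicate 3. Maf shares 440 bp of exon with antisense Gm15655, which these libraries, made without strand marking, cannot separate from it.

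**Figure D3:**
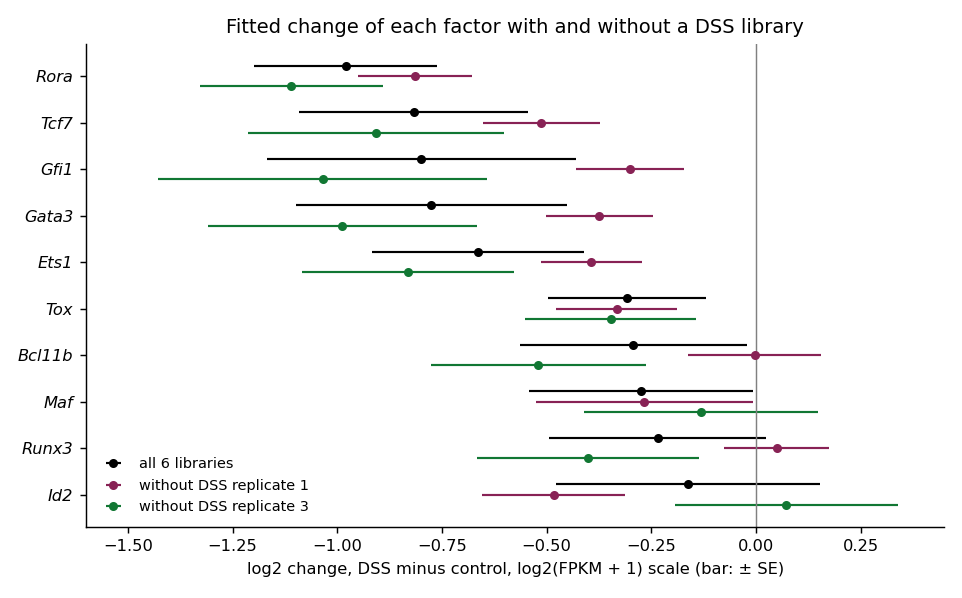
Fitted log2 change of each factor (DSS minus control, bars ± SE) with all 6 libraries, without DSS replicate 1 and without DSS replicate 3. Without DSS replicate 1, Gata3 moves from −0.78 to −0.37 and Gfi1 from −0.80 to −0.30, while Rora moves from −0.98 to −0.82.

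In controls the order of mean FPKM was Id2 (3567), Gata3 (859), Ets1 (194), Rora (154), Runx3 (79.5), Tcf7 (50.1), Gfi1 (42.2), Tox (33.2), Bcl11b (21.8) and Maf (10.1). No 2 neighbours in that order overlapped over the 3 control libraries. In DSS the first 6 kept this order, but Ets1 with Rora, Rora with Runx3, Tcf7 with Tox, Tox with Gfi1 and Gfi1 with Bcl11b overlapped.

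The log2 ratio of Tcf7 to its paralog Lef1 was lower in 3 of 3 DSS libraries, at 3.34 ± 0.10 and 2.39 ± 0.42 (SD, n = 3 libraries each, exact permutation p = 0.1). This p is the smallest that 3 libraries against 3 allow, and 0.350 when adjusted over the 7 ratios tested. Lef1 was low, at 3.40 to 4.46 FPKM in controls and 3.58 to 5.88 in DSS. The ratio of Gata3 to the ILC1 factor Tbx21 overlapped between the groups (6.82 ± 0.30 and 6.62 ± 0.70, SD, n = 3 libraries each, exact permutation p = 0.700). Tbx21 measured 0.858 FPKM in DSS replicate 1 and 5.17 to 10.05 in the other 5 libraries. The ratio of Gata3 to Maf overlapped too (6.30 ± 0.36 and 5.80 ± 0.75, SD, n = 3 libraries each, exact permutation p = 0.400). Its difference of −0.50 was −0.11 without DSS replicate 1, −0.31 without control replicate 3 and −0.86 without DSS replicate 3.

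**Figure D4:**
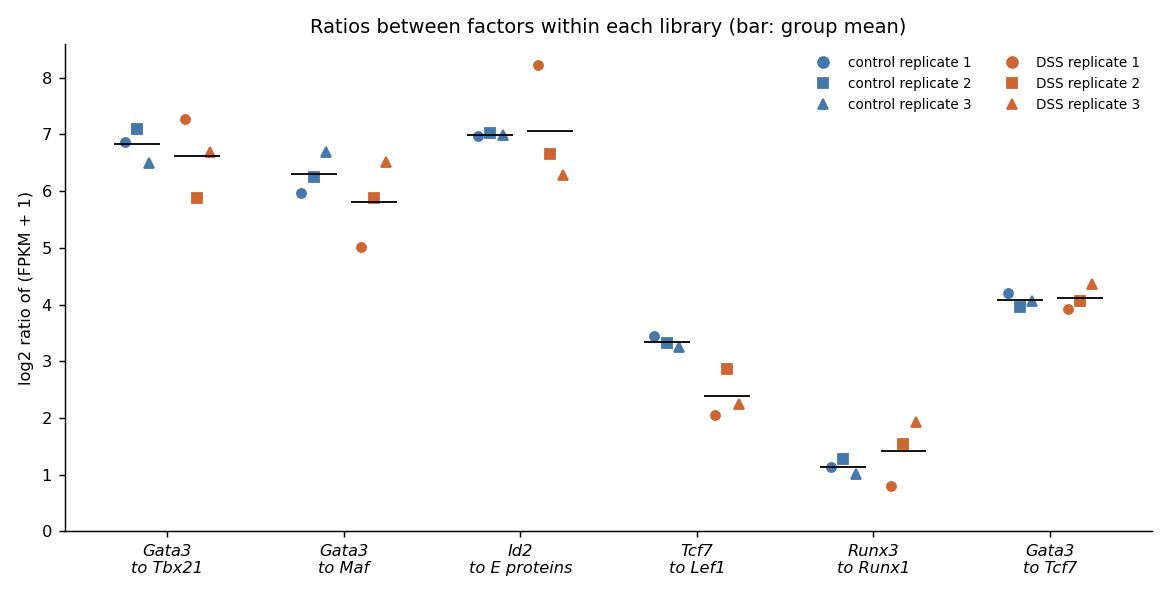
Log2 ratio of (FPKM + 1) between pairs of factors within each library, with a bar at each group mean of 3 libraries. The ratio of Tcf7 to Lef1 is lower in all 3 DSS libraries, and Id2 to the E proteins spreads from 6.28 to 8.22 in DSS against 6.97 to 7.03 in controls.

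Other genes of the same developmental pathway were set beside the 10. Of 28 further ILC development factors 27 were tested, 1 passed downward (0.148% of all tested genes) and 0 upward (0.0738%). Groups were separated with lower DSS values for 9 (9.60% of all tested genes) and with higher ones for 0 (6.35%). The median log2 change was −0.23, against 0.03 over all tested genes. The 1 that passed was Irf4, a factor of activated lymphocytes, at 24.4, 20.1 and 20.8 FPKM in controls and 5.40, 6.91 and 6.15 in DSS (log2 change −1.67 ± 0.21 SE, limma adjusted p = 0.0212). Nfil3, which acts upstream of Id2 in innate lymphoid progenitors, and the Ikaros family gene Ikzf3 came next by p and did not pass. Ikzf3 measured 200, 203 and 192 FPKM in controls and 95.2, 101 and 101 in DSS (log2 change −0.99 ± 0.18 SE, limma adjusted p = 0.0936). Its 3 DSS libraries lay close together, DSS replicate 1 included, unlike those of Gata3 or Gfi1. Nfil3 measured 258, 251 and 256 FPKM in controls and 100.5, 136 and 106 in DSS, with a log2 change of −1.17 ± 0.20 SE (limma adjusted p = 0.0743). Nfkb1, Rbpj, Satb1, Bhlhe40, Hif1a and Zeb1 were the other 6 with separated groups.

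Of the 6 listed factors of ILC1 and ILC3 fate, 4 were tested and 0 passed, and Zfp683 was not analysed here. Ahr, a ligand-activated factor of ILC3s that ILC2s of the gut also use, was separated, at 45.4 to 48.7 FPKM in controls and 28.6 to 33.9 in DSS (limma adjusted p = 0.295). Tbx21 is given above, and Ikzf4 measured 0.305 to 3.85 FPKM over the 6 libraries. Of 28 paralogs of the 10 factors, 15 were tested and 0 passed. In each direction 1 was separated, Runx1 downward and Tcf7l1 upward, against 9.60% and 6.35% of all tested genes. The paralog with the next lowest p was Tox2, at 2.54 to 6.80 FPKM in controls and 0.905 to 2.75 in DSS (limma adjusted p = 0.503). Ets2 measured 149 to 178 and 79.5 to 150.3 FPKM, and Tox4 21.7 to 26.5 and 12.2 to 22.3. None of Gata1, Gata2, Gata4, Gata6, Bcl11a and Gfi1b reached a mean of 1 FPKM over the 6 libraries, and their highest value in any library was 3.04 FPKM, for Gfi1b in DSS replicate 3.

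Of 22 receptor, cytokine and surface genes known as targets or companions of these factors, 21 were tested. Of these 2 passed, both downward, against 0.148% of all tested genes. These were Il5, the cytokine gene most tied to Gata3, with a log2 change of −2.43 ± 0.19 SE (limma adjusted p = 8.66e-04), and the chemokine receptor gene Ccr4 (−1.48 ± 0.21 SE, limma adjusted p = 0.0426). Il5 measured 73.8, 65.2 and 58.9 FPKM in DSS replicates 1, 2 and 3, and Ccr4 measured 43.8, 63.8 and 60.3. Whether either gene followed the level of Gata3 was not tested. The list had 9 members separated downward and 1 upward (Il18r1), against 9.60% and 6.35% of all tested genes. Its median log2 change was −0.35.

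**Figure D5:**
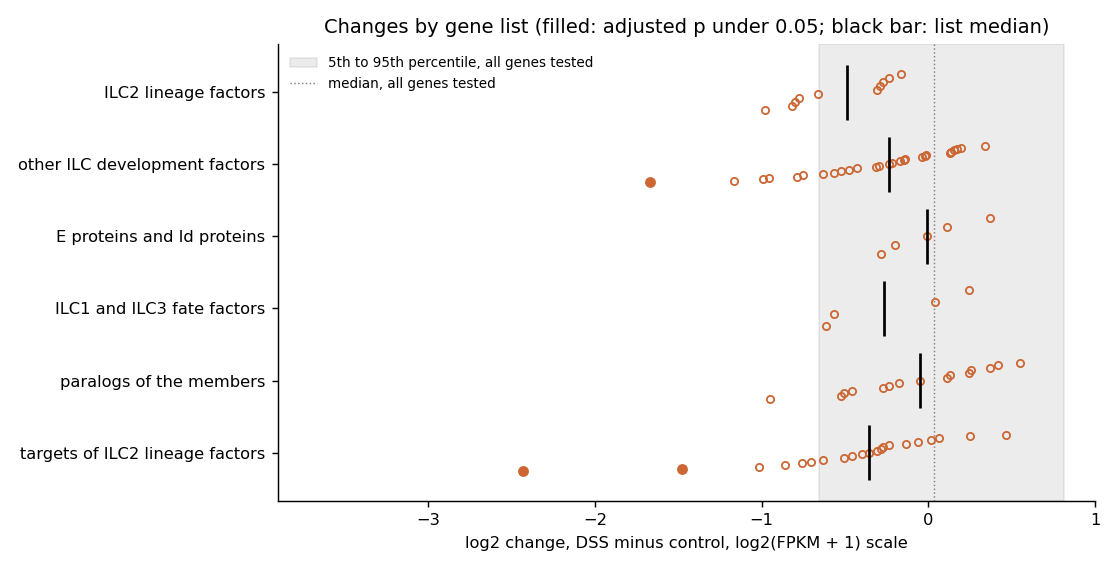
Log2 change of each tested gene in 6 lists, with a black bar at each list's median, filled points for an adjusted p under 0.05 and a band from the 5th to the 95th percentile of all tested genes. The 10 lineage factors all lie below 0 and none is filled, while Irf4, Il5 and Ccr4 are the filled points of the other lists.

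For 9 factors with a mean of at least 10 FPKM, or all but Maf, the 2 genes with the most similar profile were taken by root mean square (RMS) difference. It was computed between centred log2(FPKM + 1) values over the 6 libraries, among 4426 other genes. Closest to Gata3 were Eepd1 (0.03) and Lrrc58 (0.04), and closest to Rora were Hlf, a PAR bZIP factor gene (0.07), and the ETS family gene Etv3 (0.08). Ets1 was closest to Max, which encodes the partner of MYC, and the ETS family gene Etv6 (both 0.03). Gfi1 was closest to the kinase gene Pim3 and the corepressor gene Ctbp1 (0.06 and 0.07), and Tcf7 was close to Hspa2 (0.08). Bcl11b was closest to Nfatc3 and Esyt1 (0.05 and 0.06), Runx3 to Irak1 and Nfatc3 (both 0.03) and Tox to Wnk1 and Lta4h (0.05 and 0.06). Id2 was closest to the splicing gene Snrpd1 and the ubiquitin ligase gene Skp1 (both 0.05). The nearest genes were picked on these same 6 libraries, so a pattern shared with their factor follows from the choice. Among the 10 themselves the closest pairs were Bcl11b with Runx3 (0.07) and Gata3 with Gfi1 (0.11).

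The labelled cell type was checked against markers. The 16 ILC2 markers, which include Gata3 and Rora, summed to 4338 to 4704 FPKM in controls and 3461 to 4331 in DSS. The sum is weighted to its most abundant genes. Of the 15 tested, 12 had a lower fitted value in DSS and 3 a higher one. Groups were separated downward for 8 and upward for 1 (Calca), against 9.60% and 6.35% of all tested genes. Of the 15, 1 passed downward (Il5), against 0.148% of all tested genes, and the median log2 change was −0.59. Ptgdr2, the CRTH2 receptor gene, was at or below 0.885 FPKM throughout. The pan-leukocyte gene Ptprc measured 69.2 to 75.0 FPKM in all 6 libraries. Of 12 T cell markers 9 were in the table, and their sum was 26.9 to 40.7 FPKM in controls and 64.0, 22.4 and 36.0 in DSS replicates 1, 2 and 3, with Cd3e at 1.62 to 4.43. In DSS replicate 1 the sum was carried by Cd3g (37.6 FPKM) and Cd3d (13.6 FPKM). The 7 B and plasma cell markers in the table summed to 26.6 to 39.2 FPKM in controls and 291, 218 and 49.98 in DSS replicates 1, 2 and 3, while Pax5 stayed at or below 0.285. The B and plasma cell sum was carried by the plasma cell genes Jchain and Mzb1. Jchain measured 8.98 to 19.2 FPKM in controls and 163.5, 146 and 27.7 in DSS replicates 1, 2 and 3, and Mzb1 0.708 to 4.27 and 102, 56.7 and 7.37. The 12 neutrophil markers summed to 3.19 to 9.34 FPKM in controls and 69.0 to 114 in DSS. Of the 7 tested, 3 passed upward (S100a8, S100a9 and Retnlg), against 0.0738% of all tested genes. Ly6g was at or below 0.414 FPKM. The 12 epithelial markers summed to 20.6 to 39.1 and 50.3 to 57.4 FPKM, with Epcam at 8.07 to 10.5 and 14.2 to 19.3. Sums of 12 macrophage and monocyte markers were 31.2 to 40.0 and 38.1 to 65.3 FPKM, and of 7 dendritic cell markers 13.8 to 19.7 and 6.43 to 20.4. Those of 9 ILC3 markers were 301 to 408 and 118 to 360 FPKM, and of 10 ILC1 and NK markers 374 to 501 and 207 to 498. Those of 7 mast cell and basophil markers were 0.361 to 6.93 and 2.80 to 11.2, and of 10 stromal and endothelial markers 24.1 to 42.0 and 16.5 to 40.5. The part of these cell types in the values of the 10 factors was not tested.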

How the data were processed

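RNA was taken from sorted colonic ILC2s, 3 control and 3 DSS libraries, and made into unstranded paired-end libraries from full-length cDNA, per the labels' protocols. The submitters' processing notes name cutadapt 1.9, HISAT2 2.2.1 and mm10. No source used here names the counting tool. Values are FPKM per gene, as the authors deposited them. Whole fragments fitted the values of 100% of genes above 0 (tolerance 0.001 of a fragment), and their totals are the depths given. A common factor of a gene's counts cannot be seen this way, so wholeness does not show that each count is exact. The groups were compared with limma 3.58.1 (R 4.3.3) on log2(FPKM + 1), with a variance trend, over 12187 genes with a mean of at least 1 FPKM and Benjamini-Hochberg adjustment over all of them at 0.05. A change is called only past that threshold. Ratios within a library used exact two-sided permutation tests (SciPy 1.17.1). The fit and the recovery were tested on simulated data. With the spread of the real libraries, the limma fit called 5 of 99 changes of 2-fold (5.05%). It called 37 of 95 changes of 4-fold (38.9%). With an even spread it called 15.3% and 95.7% of them. A factor that did not pass is therefore not read as unchanged.

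The factors and gene lists were chosen with earlier results of these data known. Named beside the factors are genes that passed, those of lowest p in lists where none passed, and the 2 nearest profiles. Nfil3, Ikzf3, other separated list members and individual markers were named after their values were seen. Same-numbered libraries deviated together (correlations of 0.189, 0.262 and 0.545), so the numbers were taken as pairs. This rests on the data, since no label gives a shared mouse, batch or day, and numbers 1 and 2 are not told apart by it: control 1 with DSS 2 gave 0.345 and control 2 with DSS 1 gave 0.101. The correlations are not independent, since deviations within a group sum to 0, and replicate 3 had the fewest fragments in each group. The main fit and the ratio tests use no pairing. Gene positions are from GENCODE M21 (mm10). The 21 alternatives changed pseudocount, filter, scaling, variance model, library weights, block, count model or the libraries used. A ratio, a neighbouring profile and single values of a few list genes are not reported here.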

Additional observations from a re-analysis of the deposited data

How the results depend on the processing

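Gata3, Rora, Gfi1, Tcf7, Ets1, Maf and Tox had a lower fitted value in DSS under 21 of 21 alternatives. That held for Bcl11b and Id2 under 20 and for Runx3 under 19. The filter, variance model and replicate block alternatives cannot move a fitted value, so their signs only repeat the main fit. Bcl11b turned to 0.0147 and Runx3 to 0.0709 without both replicates 1. Leaving out 1 library gave Id2 −0.483 (DSS replicate 1) to 0.0724 (DSS replicate 3) and Runx3 −0.401 (DSS replicate 3) to 0.0493 (DSS replicate 1). The number of genes passing limma's test, 27 with 6 libraries, was 14 with equal totals (8 lower), 13 with median-of-ratios scaling (7 lower) and 4 without a variance trend. It was 302 without both replicates 1 and 8 without both replicates 3. Leaving out 1 library gave 5 (control replicate 1 or 2) to 435 (DSS replicate 1), with 6 without control replicate 3, 7 without DSS replicate 2 and 15 without DSS replicate 3. Library weights gave 3286 genes (27.0% of those tested), 6 of them among the 10 factors (Gata3, Rora, Tcf7, Ets1, Id2 and Tox). The estimation of these weights stopped before converging, with a weight of 17.76 on DSS replicate 2. Weights estimated gene by gene, added after seeing the data for that reason, gave 635 genes (5.21% of those tested) and 1 factor, Rora. Of the factors, 1 passed without both replicates 1 (again Rora), against 2.24% of all genes. When 1 library was left out 0 to 1 passed, the 1 being without DSS replicate 1, against 3.47% of all genes. Rora passed under 4 of the 21 alternatives, with limma adjusted p from 2.16e-05 to 0.662. With the replicate block 22 genes and 0 factors passed (Rora, limma adjusted p = 0.166), and the block changed no call among the 10. The log2 ratio of Gata3 to Tbx21 differed by 0.0377 with a pseudocount of 0.1, and that of Gata3 to Tcf7 by −0.0372 with a pseudocount of 5. Leaving out 1 library gave −0.536 (DSS replicate 1) to 0.159 (DSS replicate 2) for Gata3 to Tbx21. It gave −0.526 (DSS replicate 1) to 0.444 (DSS replicate 3) for Id2 to the E proteins, and −0.0803 (DSS replicate 3) to 0.138 (DSS replicate 1) for Gata3 to Tcf7, which was −0.0183 without control replicate 2. The causes of these changes were not tested. With 3 libraries a group, no permutation test of a ratio can go below 0.1.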
